A study of Mus musculus with 2 samples.

Results

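The thermogenic programme of fat cells was followed through 10 genes, Ucp1, Ppargc1a, Prdm16, Dio2, Cox8b, Cox7a1, Elovl3, Cpt1b, Ppara and Esrrg. They are genes known from this programme, and the list was chosen after earlier results of these data were known. All 10 were among the 31053 genes of both count matrices. Their unique molecular identifiers (UMIs, each standing for 1 captured RNA molecule) were summed per cell class, and their presence together in the same nuclei was counted. The nuclei came from inguinal white adipose tissue (iWAT) of male mice fed a Western diet for 4 weeks, isolated, as reported, without the lymph node. The first library was labelled WT, for Lexis-AdWT mice, which carry the floxed Lexis allele without Cre. The other was labelled KO, for Lexis-AdKO littermates, in which Adipoq-Cre, active in adipocytes, deletes that floxed allele, so that other cells of the depot keep Lexis. Lexis is a long noncoding RNA. Each library pooled 3 mice, and the age of the mice is not given in the labels. With 1 library per genotype no test between genotypes was possible, and every interval below is an exact 95% interval that covers counting error only. The matrices are named after the genotype opposite to their label in both cases, and Lexis was not analysed here. Its level could thus not serve to check the labels, by which the libraries are called throughout. Were the labels exchanged, every ratio between the libraries below would be inverted, that of Ucp1 from 0.340 to 2.94.

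Beige adipocytes are thermogenic cells that arise among the white adipocytes of subcutaneous fat, above all under cold or adrenergic stimulation. Norepinephrine acts through beta-adrenergic receptors and cAMP to start lipolysis and to induce Ucp1, the mitochondrial carrier that dissipates the proton gradient as heat. The coactivator encoded by Ppargc1a, the transcriptional regulator Prdm16 and the nuclear receptors Ppara and Esrrg act on this programme and on oxidative metabolism. Dio2 makes active thyroid hormone inside the cell, Cox8b and Cox7a1 encode subunits of cytochrome c oxidase, Elovl3 elongates fatty acids, and Cpt1b carries long-chain fatty acids into mitochondria.

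Ucp1 is induced through cAMP, which acts on genes through the cAMP response element (CRE, TGACGTCA) and its half-site TGACG. Of the promoters that could be read, the 4 shown are those that held these letters. The windows are the 250 bases before the RefSeq start on GRCm38.p6, written 5′ to 3′ on the strand of the gene, with matches to TGACG on either strand, or the full CRE that holds it, in capitals. They lie at chr8:83290098-83290347 (plus strand) for Ucp1, chr5:51567726-51567975 (minus strand) for Ppargc1a, chr12:90739039-90739288 (minus strand) for Dio2 and chr15:85735526-85735775 (plus strand) for Ppara. The windows of Ppargc1a and Ppara lie inside the annotated gene spans, which begin further upstream.

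Ucp1: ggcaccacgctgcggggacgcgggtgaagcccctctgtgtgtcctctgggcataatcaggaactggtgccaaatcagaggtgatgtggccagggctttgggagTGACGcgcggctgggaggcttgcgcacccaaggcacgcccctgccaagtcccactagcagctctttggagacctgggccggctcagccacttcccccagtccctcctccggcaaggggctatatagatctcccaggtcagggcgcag
Ppargc1a: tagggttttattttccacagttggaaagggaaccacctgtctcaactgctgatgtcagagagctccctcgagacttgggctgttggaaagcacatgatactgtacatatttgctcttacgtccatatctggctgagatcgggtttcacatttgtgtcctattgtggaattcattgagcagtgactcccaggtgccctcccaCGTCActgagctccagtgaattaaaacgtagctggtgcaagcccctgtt
Dio2: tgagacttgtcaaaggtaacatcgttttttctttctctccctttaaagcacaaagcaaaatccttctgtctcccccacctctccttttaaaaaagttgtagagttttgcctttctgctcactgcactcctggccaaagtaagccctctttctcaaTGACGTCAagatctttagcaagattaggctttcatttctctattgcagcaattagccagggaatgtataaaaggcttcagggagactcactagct
Ppara: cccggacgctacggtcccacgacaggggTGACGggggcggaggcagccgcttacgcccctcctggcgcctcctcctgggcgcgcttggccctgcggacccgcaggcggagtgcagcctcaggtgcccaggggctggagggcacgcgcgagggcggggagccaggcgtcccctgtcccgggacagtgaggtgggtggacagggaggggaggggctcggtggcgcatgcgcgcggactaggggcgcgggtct

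The first base of the match lay at -147 in Ucp1, -49 in Ppargc1a and -222 in Ppara, counted from the start. Dio2 carried the full CRE at -95, whose letters hold the half-site on both strands. Windows were found for 8 of the 10 genes, and those of Prdm16, Cox8b, Cox7a1 and the 4 starts of Esrrg held no TGACG. Among 32851 mouse promoter windows of 250 bases, 17.8% held TGACG and 1.55% held TGACGTCA. The TATA letters TATAAA, in 12.4% of windows, lay at -30 in Dio2 and at -19 of the first Esrrg start. None of the windows of these 8 genes held AGGTCANAGGTCA, the letters of an element for PPAR receptors (0.033% of windows), or TCAAGGTCA, those of an element for estrogen-related receptors (0.387%). These matches describe letters and no binding was measured.

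Each matrix held 5000 barcodes, with 9376351 UMIs in the WT-labelled library and 19655049 in the KO-labelled library. Barcodes with at least 500 genes and at most 5% mitochondrial UMIs numbered 3649 (median 1208 UMIs) and 2944 (median 3973.5 UMIs), and 10 barcode sequences occurred among the kept barcodes of both. Adipocyte nuclei were 450 of 3649 (12.3%, median 3660.5 UMIs) in the WT-labelled library and 955 of 2944 (32.4%, median 8073 UMIs) in the KO-labelled library. They formed different clusters, since cluster 4 held all 450 adipocytes of the WT-labelled library with 4 of the KO-labelled library, and cluster 1 held 951 nuclei of the KO-labelled library alone. Of 12 adipocyte markers, 12 in the WT-labelled library and 10 in the KO-labelled library (all but Adipoq and Lpl) had at least 2 times the level of myeloid nuclei in counts per 1000000 UMIs (CPM). Lymphocytes made up 58.6% of the WT-labelled library and 2.65% of the KO-labelled library, and the 58 myocyte nuclei were all of the KO-labelled library. Cluster 11, left unnamed, held 159 nuclei of the WT-labelled library and 1 of the other. It passed 5 markers of lymphoid stroma and 4 of mural cells. All other nuclei, set beside adipocytes below, are thus a different mixture in each library. Myocyte genes within adipocytes summed to 22.4 CPM (7 of 13 at 0) in the WT-labelled library and 98.8 CPM (1 of 13 at 0) in the KO-labelled library. Their part in the values below was not tested.

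Ucp1 (ENSMUSG00000031710, chr8:83290348-83298456) was found in few adipocytes of either library. The WT-labelled library had 52 UMIs in 17 of 450 adipocyte nuclei (3.78%, interval 2.22 to 5.98), or 24.3 CPM (interval 18.15 to 31.9). The KO-labelled library had 78 UMIs in 10 of 955 nuclei (1.05%, interval 0.503 to 1.92), or 8.27 CPM (interval 6.53 to 10.3). The intervals of level and share did not overlap between the libraries. Free RNA can leave a UMI in any nucleus, and myeloid nuclei, which should lack Ucp1, had it in 1.67% of nuclei (8.54 CPM, median 1452 UMIs) in the WT-labelled library and in 0.459% (1.42 CPM, median 2849 UMIs) in the KO-labelled library. The shares of adipocyte and myeloid nuclei overlapped within their intervals, while the adipocyte CPM was 2.85 times the myeloid CPM (interval 1.22 to 8.11) in the first library and 5.84 times (interval 2.19 to 22.0) in the second. In adipocytes the CPM of Ucp1 was 4.13 times that of all other nuclei together (interval 2.57 to 6.75) in the WT-labelled library and 14.9 times (interval 5.58 to 55.9) in the KO-labelled library. Outside adipocytes, 26 of 3199 nuclei of the WT-labelled library held 29 Ucp1 UMIs, at most 3 in a nucleus, and 24 of those 26 held no other gene of the 10. The KO-labelled library had 4 such UMIs in 4 of 1989 nuclei, none with another gene of the 10. Isolated Ucp1 UMIs thus occurred outside adipocytes, with 20 of the 29 in WT-labelled lymphocytes, whereas nuclei with at least 3 Ucp1 UMIs were 6 adipocytes in each library and 1 nucleus outside adipocytes.

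**Figure D1:**
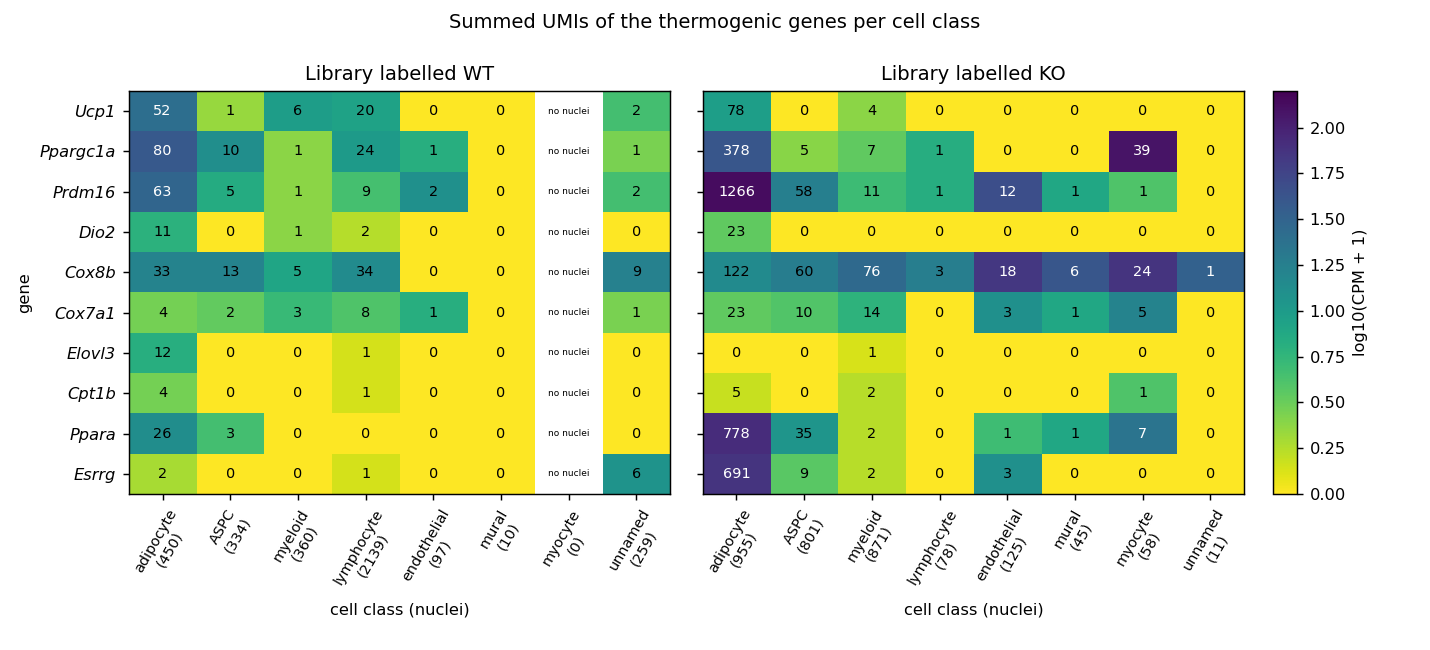
Summed UMIs of the 10 thermogenic genes (rows) in each cell class (columns, number of nuclei in brackets) of the 2 libraries; numbers are UMIs and colour is log10(CPM + 1) of the class. Ucp1, Prdm16 and Ppara had a higher CPM in adipocytes than in all other nuclei together in both libraries, Ppargc1a had 119 CPM in myocytes against 40.1 CPM in adipocytes of the KO-labelled library, Cox8b was spread over the classes, and Esrrg had 691 adipocyte UMIs in the KO-labelled library against 2 in the WT-labelled library.

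Ppargc1a and Prdm16 were found in a larger share of adipocyte nuclei than Ucp1 in both libraries, and Ppara and Esrrg were in the KO-labelled library. These are shares of nuclei with a UMI, and they do not compare the levels of the genes. In the WT-labelled library the share of Ppara (4.22%, interval 2.56 to 6.5) overlapped with that of Ucp1, and Esrrg was in 0.444%. Ppargc1a (chr5:51454249-52115853) had 80 UMIs in 58 adipocyte nuclei (37.4 CPM, interval 29.6 to 46.5) of the WT-labelled library and 378 UMIs in 193 nuclei (40.1 CPM, interval 36.1 to 44.3) of the KO-labelled library. These levels overlapped. The myocyte nuclei had the higher Ppargc1a level, with 39 UMIs in 28 of 58 nuclei and 119 CPM (interval 84.9 to 163), and Ppargc1a also serves mitochondrial biogenesis in muscle.

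Prdm16 (chr4:154316122-154637360), which holds adipocytes in the brown and beige state, had 63 UMIs in 10.4% of adipocyte nuclei (29.4 CPM, interval 22.6 to 37.7) of the WT-labelled library. The KO-labelled library had 1266 UMIs in 54.0% of adipocyte nuclei (134 CPM, interval 127 to 142). Its levels were higher there than in ASPCs, the adipogenic stem and precursor cells (16.96 CPM, 58 UMIs), and endothelial nuclei (46.1 CPM, 12 UMIs) of the same library. Prdm16 was found in over 50% of the adipocytes of a library in which Ucp1 was found in 1.05%. Intronic length is 311 kb for Prdm16 and 6.46 kb for Ucp1, and its part in this contrast was not tested.

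The nuclear receptors had the largest differences between the libraries among the regulators. Ppara (chr15:85734910-85806851), which drives fatty acid oxidation genes, had 26 UMIs in 19 adipocyte nuclei (12.2 CPM, interval 7.94 to 17.8) of the WT-labelled library and 778 UMIs in 307 nuclei (82.5 CPM, interval 76.8 to 88.5) of the KO-labelled library. Esrrg (chr1:187608510-188214885), a receptor that acts on mitochondrial genes, had 2 UMIs in 2 nuclei (0.935 CPM, interval 0.113 to 3.38) and 691 UMIs in 231 nuclei (73.2 CPM, interval 67.9 to 78.9). Both were adipocyte genes in the KO-labelled library, where the CPM of Ppara was 12.9 times (interval 9.57 to 17.75) and that of Esrrg 37.6 times (interval 22.3 to 69.15) that of all other nuclei. The 2 adipocyte UMIs of Esrrg in the WT-labelled library stood beside 6 UMIs in unnamed clusters.

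Dio2 (chr12:90724552-90739038) was rare and found mainly in adipocytes. It had 11 UMIs in 8 adipocyte nuclei (5.14 CPM, interval 2.57 to 9.20) and 3 UMIs elsewhere in the WT-labelled library, and 23 UMIs in 8 adipocyte nuclei (2.44 CPM, interval 1.54 to 3.66) with 0 elsewhere in the KO-labelled library. Elovl3 (chr19:46131897-46135694) had 12 UMIs in 9 adipocyte nuclei of the WT-labelled library (5.61 CPM, interval 2.90 to 9.80). The KO-labelled library had 0 Elovl3 UMIs in 955 adipocyte nuclei. The exact upper limit of this count was 0.391 CPM, and for ratios a count of 0 was set at 3 counts, or 0.318 CPM. The interval of the ratio to the WT-labelled library reached up to 0.0816.

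Of the remaining genes, Cox8b and Cox7a1 were not above other nuclei in adipocytes. Cox8b (chr7:140898942-140900446) had 33 adipocyte UMIs (15.4 CPM, interval 10.6 to 21.7) in the WT-labelled library, 1.25 times the level of all other nuclei (interval 0.790 to 1.93). The KO-labelled library had 122 Cox8b UMIs in adipocytes (12.9 CPM, interval 10.7 to 15.4), 0.494 times that of all other nuclei (interval 0.390 to 0.624), with 73.5 CPM in myocytes, 69.1 CPM in endothelial nuclei and 26.9 CPM in myeloid nuclei. The part of free RNA in its adipocyte UMIs was not tested. Cox7a1 (chr7:30184171-30186030) had 4 and 23 adipocyte UMIs, again not above the other nuclei (0.614 times, interval 0.148 to 1.93, and 0.531 times, interval 0.298 to 0.932). Cpt1b (chr15:89416405-89425862) had only 4 and 5 adipocyte UMIs, beside 1 and 3 in all other nuclei (9.21 times, interval 0.911 to 454, and 1.27 times, interval 0.247 to 8.18), too few to place it. Annotated genes overlap Prdm16, Dio2, Elovl3, Cpt1b and Esrrg (Pitx3 in the case of Elovl3), so reads there could be split or assigned to the neighbour by the counting.

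The question of the design was whether adipocytes of the 2 genotypes differ in thermogenic transcripts, and the ratio of adipocyte CPM, KO-labelled over WT-labelled library, was taken for each gene. Of the 10 genes, the CPM of 3 (Prdm16, Ppara, Esrrg) was at least 2 times and that of 4 (Ucp1, Dio2, Elovl3, Cpt1b) at most 0.5 times as high, beside 25.6% and 18.1% of 11777 genes with at least 50 adipocyte UMIs. Only 6 of the 10 genes reached those 50 UMIs themselves. The interval lay above 1 for 3 genes, below 1 for 2 and spanned 1 for 5. Over the 10 genes the log2 ratio had a median of -0.08, and over all 11777 genes one of -0.02. The 10 genes thus lay on both sides.

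By gene, the log2 ratio of Ucp1 was -1.56 (interval -2.08 to -1.02), a ratio of 0.340. Elovl3 had a log2 ratio of -4.14 against the floor of 3 counts, with an upper limit of -3.62. Dio2, at -1.08 (interval -2.17 to 0.11), and Cpt1b, at -1.82 (interval -4.04 to 0.51), lay on the same side but within counting error. Dio2 left counting error in some alternatives, at -1.47 (interval -2.70 to -0.17) without nuclei marked as doublets, and Cpt1b at -2.42 (upper limit -0.30) with a minimum of 1000 genes. Ppargc1a, at 0.10 (interval -0.25 to 0.47), Cox8b, at -0.25 (interval -0.82 to 0.35), and Cox7a1, at 0.38 (interval -1.17 to 2.37), did not differ beyond counting error. Prdm16 had a log2 ratio of 2.19 (interval 1.82 to 2.58), Ppara of 2.76 (a ratio of 6.78, interval 4.59 to 10.45) and Esrrg of 6.29 (interval 4.43 to 9.34). The 3 regulators with higher levels in the KO-labelled library are long genes, and the 4 genes lower there are short.

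The ratio moved with the length of introns over all genes. Genes with up to 3000 intronic bases had a median of -0.91 (1284 genes), and those with more than 100000 had a median of 1.42 (1487 genes). Intronic length was 6.46 kb for Ucp1, 1.14 kb for Cox8b and 1.92 kb for Elovl3, but 64.0 kb for Ppara, 107 kb for Ppargc1a, 311 kb for Prdm16 and 600 kb for Esrrg. The median of the 401 genes nearest in intronic length was therefore subtracted from each gene. Prdm16 then had a log2 value of 0.13 (interval -0.24 to 0.52), within counting error. Esrrg kept 4.04 (interval 2.18 to 7.09) and Ppara 2.22 (interval 1.66 to 2.85), both still higher in the KO-labelled library. Ucp1, at -0.99 (interval -1.51 to -0.45), and Elovl3, at -3.21 (upper limit -2.68), were still lower. Ppargc1a turned to -0.77 (interval -1.13 to -0.41) and Cox8b to 0.74 (interval 0.18 to 1.35). Dio2, Cpt1b and Cox7a1 spanned no difference with values of -0.59, -1.20 and 1.33. After this step 3 of the 10 genes were at least 2 times higher (18.8% of 11014 genes) and 2 were at or under 0.5 times (12.2%).

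**Figure D2:**
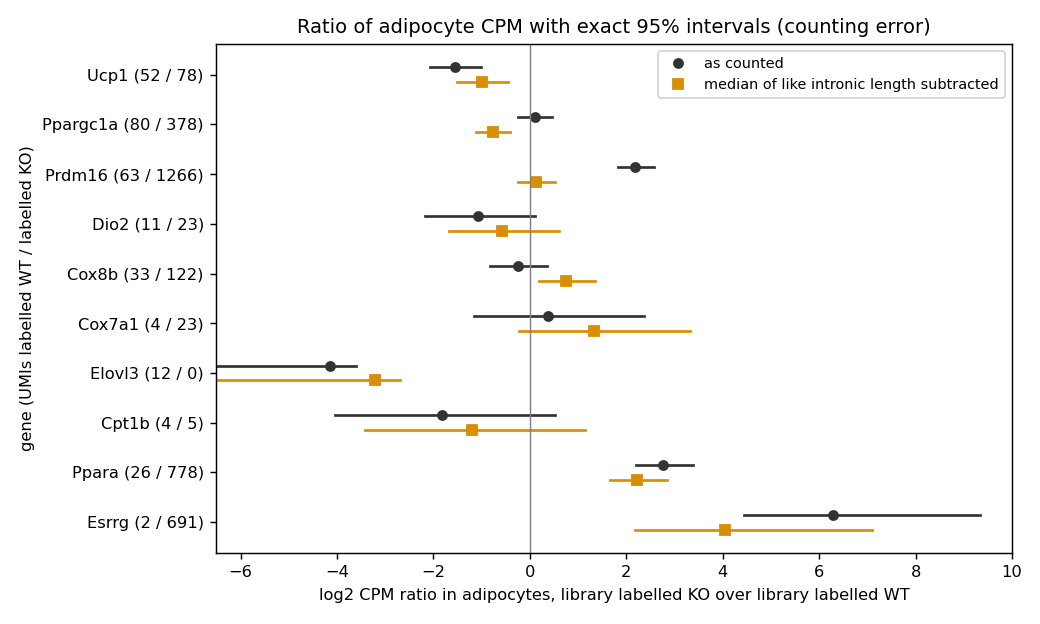
Log2 ratio of adipocyte CPM, KO-labelled over WT-labelled library, for the 10 genes, with adipocyte UMIs of both libraries in brackets; circles are ratios as counted, squares have the median of genes of like intronic length subtracted, and bars are exact 95% intervals of counting error (those of Elovl3 run past the left edge because its lower limit is not bounded). Ucp1 and Elovl3 stayed left of 0 and Ppara and Esrrg right of 0 in both, while Prdm16 moved from 2.19 to 0.13.

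The Ucp1 sum rested on very few nuclei. The 17 positive nuclei of the WT-labelled library held 16, 7, 4, 4, 3 and 3 UMIs in the highest 6, then 2 UMIs in 4 nuclei and 1 UMI in 7 nuclei. The 3 highest held 27 of 52 UMIs (51.9%). The 10 nuclei of the KO-labelled library held 32, 24, 7, 4, 3, 3 and 2 UMIs, and 1 UMI in the other 3. The 3 highest held 63 of 78 UMIs (80.8%), and the first 2 alone held 71.8%. A positive nucleus had 3.06 Ucp1 UMIs on average in the WT-labelled library and 7.80 in the KO-labelled library, where positive nuclei were deeper (median 8240 UMIs against 2948). Without the 3 highest nuclei of each library the log2 ratio of Ucp1 was -2.88, and without the first 2 of the KO-labelled library it was -3.38.

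Dio2 also had much of its UMIs in 3 nuclei, 54.5% of 11 UMIs and 69.6% of 23 UMIs. A share in 3 nuclei is high for any gene with few UMIs. Cox7a1 and Cpt1b, with 4 UMIs each in the WT-labelled library, stood at 75.0%. The regulators were spread more widely, apart from Esrrg in the WT-labelled library, which had only 2 UMIs. The 3 nuclei with most UMIs held 18.8% and 22.5% of Ppargc1a, 34.6% and 12.7% of Ppara, and 15.9% and 2.61% of Prdm16. Esrrg had 8.83% of its 691 UMIs in 3 nuclei of the KO-labelled library. It took 124 nuclei to reach 50% of the Prdm16 UMIs of that library, against 2 nuclei for Ucp1.

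**Figure D3:**
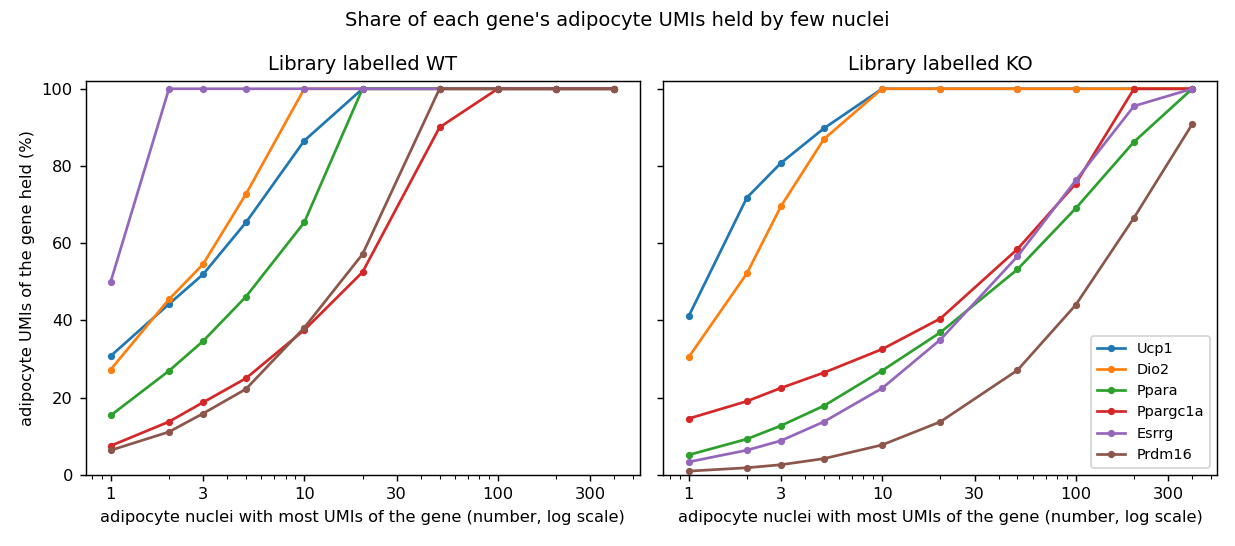
Share of a gene's adipocyte UMIs (%) held by the nuclei with most UMIs of that gene (number of nuclei, log scale) for 6 of the genes in each library. The first 10 nuclei held 100% of Ucp1 and Dio2 but 7.74% of Prdm16 in the KO-labelled library, and the 2 Esrrg UMIs of the WT-labelled library lay in 2 nuclei.

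The nuclei with most Ucp1 were then read gene by gene. For the KO-labelled library, the nucleus with 32 Ucp1 UMIs, of 10352 in all, also held 55 of Ppargc1a, 22 of Ppara, 17 of Esrrg, 5 of Prdm16, 2 of Dio2 and 2 of Cox7a1. The nucleus with 24 Ucp1 UMIs, of 15619, held 40 of Ppara, 23 of Esrrg, 13 of Ppargc1a, 4 of Dio2, 3 of Prdm16 and 3 of Cox8b. The nucleus with 7 Ucp1 UMIs held 17 of Ppara and 7 each of Ppargc1a, Dio2 and Esrrg, but also 45 UMIs of Lyz2, a myeloid gene, and it was marked as a doublet by Scrublet. All 6 nuclei with at least 3 Ucp1 UMIs held Esrrg and Prdm16, and 5 of the 6 held Ppara and Ppargc1a. The 3 nuclei with 1 Ucp1 UMI held 2, 1 and 0 of the other genes.

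The Ucp1-rich nuclei of the WT-labelled library held few UMIs of the regulators. The nucleus with 16 Ucp1 UMIs, of 6184 in all, held 1 of Elovl3 and 1 of Ppara and none of Ppargc1a, Prdm16, Dio2 or Esrrg. The nucleus with 7 held 3 of Ppara. A nucleus with 4 Ucp1 UMIs, of 7221, held 4 of Elovl3, 2 of Ppara, 1 of Prdm16 and 1 of Cox8b, and the other nucleus with 4 held none of the other genes but 17 UMIs of Lyz2. Esrrg was at 0 in all 17 Ucp1 nuclei of this library, where it had 2 adipocyte UMIs in all.

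**Figure D4:**
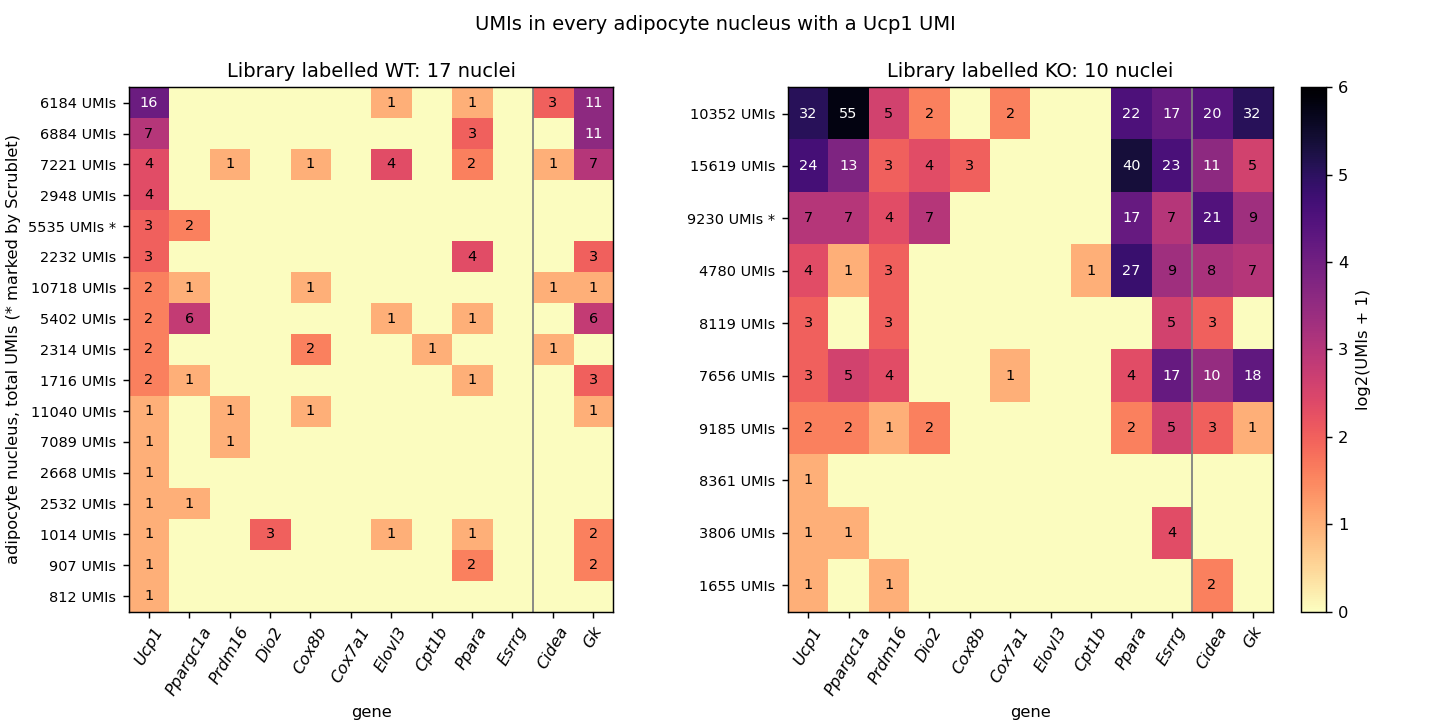
UMIs of the 10 genes, and of Cidea and Gk from the wider thermogenic list right of the line, in every adipocyte nucleus with a Ucp1 UMI (rows, labelled by the total UMIs of the nucleus; an asterisk marks nuclei that Scrublet scored as doublets); colour is log2(UMIs + 1) and empty fields are 0. The first 2 nuclei of the KO-labelled library carried 135 and 110 UMIs of the 10 genes, whereas the first of the WT-labelled library carried 16 of Ucp1, 1 of Elovl3 and 1 of Ppara.

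Co-detection was next counted over all adipocytes at full depth, comparing nuclei with and without a Ucp1 UMI within a library. The 10 Ucp1 nuclei of the KO-labelled library and the other 945 had like depths (median 8240 and 8068 UMIs). Dio2 was found in 4 of the 10 (40.0%, interval 12.2 to 73.8) and in 4 of the 945 (0.423%). Ppargc1a was found in 7 of 10 (70.0%, interval 34.8 to 93.3) against 186 of 945 (19.7%). Esrrg was found in 8 of 10 (80.0%, interval 44.4 to 97.5) against 223 of 945 (23.6%). These 3 genes were more frequent in Ucp1 nuclei beyond counting error. The share of all genes that differ likewise was not counted, so this is no result about the list. Scrublet marked 1 of the 10 nuclei as a doublet, and that nucleus held all 3 genes.

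Ppara, in 6 of 10 against 301 of 945 (31.9%), and Prdm16, in 8 of 10 against 508 of 945 (53.8%), were within counting error of the other nuclei by presence alone. Cox8b was found in 1 of 10 nuclei against 107 of 945 (11.3%). Cox7a1 was in 2 of 10 against 19 of 945.

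The 17 Ucp1 nuclei of the WT-labelled library were shallower than the other 433 (median 2948 and 3661 UMIs). Ppara was found in 8 of 17 (47.1%, interval 23.0 to 72.2) against 11 of 433 (2.54%), and Elovl3 in 4 of 17 against 5 of 433 (1.15%). Cox8b was found in 4 of 17 (23.5%, interval 6.81 to 49.9) against 21 of 433 (4.85%, interval 3.03 to 7.32), which overlapped. Ppargc1a, in 5 of 17 (29.4%, interval 10.3 to 56.0) against 53 of 433 (12.2%), and Prdm16, in 3 of 17 against 44 of 433, were also within counting error. Ppara was thus the gene that accompanied Ucp1 most often in the WT-labelled library, and Prdm16 and Esrrg in the KO-labelled library, where they were also frequent in nuclei without Ucp1.

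**Figure D5:**
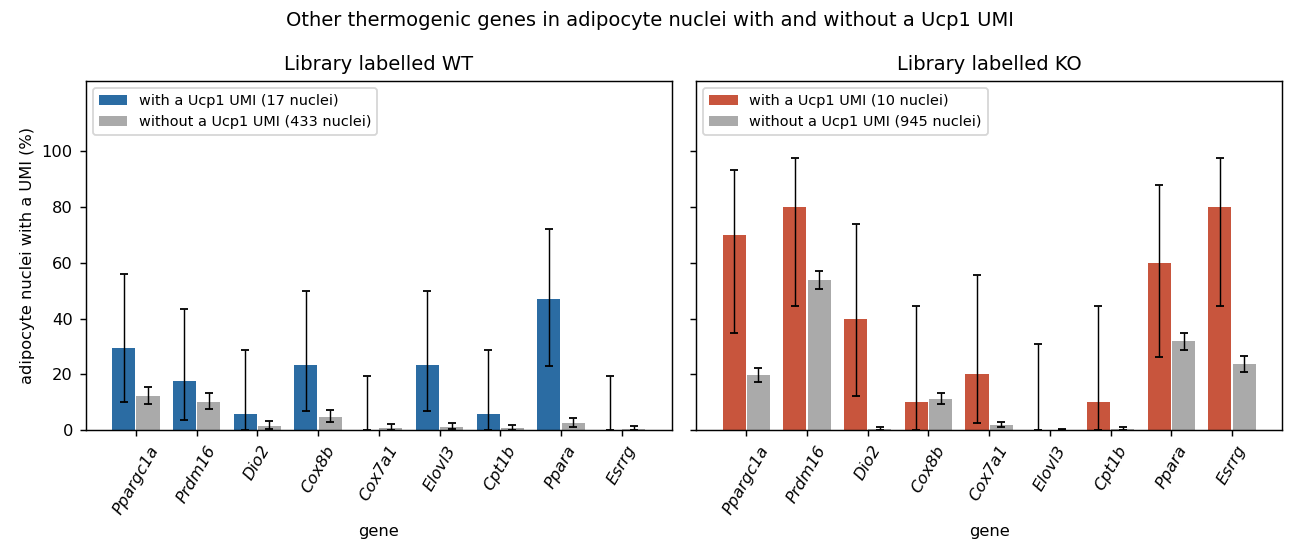
Percentage of adipocyte nuclei in which each of the other 9 genes had a UMI, among nuclei with a Ucp1 UMI (coloured bars) and without one (grey bars) at full depth in each library; error bars are exact 95% binomial intervals. Dio2 stood at 40.0% against 0.423% in the KO-labelled library and Ppara at 47.1% against 2.54% in the WT-labelled library.

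Depth differs between the libraries, so each nucleus was thinned to 1000 UMIs before they were set side by side. At least 2 of the 10 genes were found in 6 of 438 adipocyte nuclei (1.37%, interval 0.504 to 2.96) of the WT-labelled library and 45 of 950 (4.74%, interval 3.48 to 6.29) of the KO-labelled library, with 12 and 5 shallower nuclei left out. Without thinning the shares were 8.89% (40 of 450) and 44.2% (422 of 955). The higher share in the KO-labelled library rested on Ppargc1a, Prdm16 and Esrrg, the genes with more than 100000 intronic bases: without them the thinned shares were 0.913% and 0.842%. Other classes gave 0.358% (1 of 279) for myeloid nuclei and 0.181% (2 of 1106) for lymphocytes of the WT-labelled library. In the KO-labelled library they gave 0.257% (2 of 779) for ASPCs, 0 of 819 for myeloid nuclei (upper limit 0.449%) and 0 of 58 for myocytes (upper limit 6.16%). Myocytes were not below adipocytes at 2000 UMIs, where 8 of 54 (14.8%, interval 6.62 to 27.1) and 104 of 922 (11.3%) held at least 2 of the genes.

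At 1000 UMIs the Ucp1 nuclei still stood apart within the KO-labelled library. At least 2 of the other genes were found in 4 of 6 Ucp1 nuclei (66.7%, interval 22.3 to 95.7) against 41 of 944 (4.34%). Ppara was found in 4 of the 6 against 6.46% of the 944, and Esrrg in 4 of the 6 against 4.98%. In the WT-labelled library at least 2 other genes were found in 2 of 10 Ucp1 nuclei (interval 2.52% to 55.6%) against 1 of 428 (0.234%), and at least 1 in 5 of 10 against 38 of 428 (8.88%). The intervals of the 2 libraries overlap. They cover counting error only, and with 1 library per genotype a difference in co-detection between genotypes could not be tested.

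The same was counted for nuclei chosen by Ppara. At 1000 UMIs, 65 nuclei of the KO-labelled library had a Ppara UMI. Esrrg was found in 11 of them (16.9%, interval 8.76 to 28.3) against 40 of the other 885 (4.52%). The 4 of them with Ucp1 are the 4 Ucp1 nuclei with Ppara counted above. They also hold Esrrg and supply 4 of the 11, so this share is not separate from the Ucp1 nuclei. The share without them was not tested. Ppargc1a, at 9.23% (interval 3.46 to 19.0) against 3.16%, and Prdm16, at 23.1% (interval 13.5 to 35.2) against 13.4%, overlapped within counting error. Nuclei rich in these genes were not always Ucp1 nuclei. An adipocyte of the KO-labelled library with 7344 UMIs held 32 of Ppara, 5 of Dio2 and 4 of Esrrg with 0 of Ucp1, and another with 62576 UMIs held 17 of Ppargc1a and 11 of Prdm16 with 0 of Ucp1.

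The share of each gene's UMIs that lay in the 6 nuclei with at least 3 Ucp1 UMIs was used as a measure of likeness that takes depth into account. These nuclei held 1.45% of all adipocyte UMIs in the WT-labelled library and 0.591% in the KO-labelled library. In the KO-labelled library they held 56.5% of the Dio2 UMIs (95.7 times their share of all UMIs, with a lower limit of 58.4), 21.4% of Ppargc1a (36.3 times, interval 29.4 to 43.9) and 14.1% of Ppara (23.9 times, interval 19.9 to 28.4). They held 3 of 23 Cox7a1 UMIs, 11.3% of Esrrg (19.1 times) and 1.74% of Prdm16 (2.94 times). Of the Ppargc1a UMIs there, 55 of 81 came from 1 nucleus, and without it the value was 16.7 times (lower limit 11.1). Cox7a1, with 2 of its 3 UMIs there in 1 nucleus, was at 9.89 times without it, within counting error of its share (upper limit 49.4). In all, 6 of the 7 genes other than Ucp1 with at least 10 adipocyte UMIs were above their share there beyond counting error, beside 6.44% of 14758 genes. In the WT-labelled library 2 of 6 were, beside 4.32% of 11430 genes, Ppara with 38.5% of its UMIs (26.5 times, interval 14.0 to 41.0) and Elovl3 with 41.7% (28.7 times, interval 10.5 to 49.9). Elovl3 rested on 1 nucleus with 4 of its 5 UMIs there, and without it was at 11.2 times (interval 0.283 to 47.2). With 12 adipocyte UMIs in all, Elovl3 reached the minimum of 10 only through these nuclei. Its place among the 2 of 6 is thus set in part by the filter, and no conclusion is drawn from it.

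Over all genes with at least 10 UMIs in these nuclei, a likeness of at least 10 times was reached by 9 of 325 genes (2.77%) in the WT-labelled library and 31 of 1121 (2.77%) in the KO-labelled library. A gene with few UMIs passes that minimum only if many of them lie in these nuclei. These shares and the ranking that follows are therefore set in part by the filter, and no conclusion is drawn from them. The 10 genes most like Ucp1 in the KO-labelled library included Dio2, Ppargc1a and Ppara among the 10 followed here, and outside them Gk (glycerol kinase), Cidea (a lipid droplet protein of brown adipocytes), Pank1 (coenzyme A synthesis), Nr4a1 and Col27a1. Cyp4b1 ranked first, but its 92 UMIs came from 1 nucleus. In the WT-labelled library the list included Ppara (10 of 26 UMIs), Gk (32 of 114 UMIs) and Col27a1 (16 of 88 UMIs), and was led by 3930402G23Rik with 17 of its 18 UMIs in 1 nucleus. Ppara, Gk and Col27a1 were among the first 10 in both libraries, of 240 genes that passed this minimum in both. That recurrence is subject to the same filter. Lyz2, a myeloid gene, was also above its share, at 5.71 times (24 of 290 UMIs) in the WT-labelled library and 9.82 times (50 of 862 UMIs) in the KO-labelled library. Of these UMIs, 17 of the 24 and 45 of the 50 lay in 1 nucleus, which in the KO-labelled library was marked as a doublet.

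A list of 28 other thermogenic genes, chosen as the 10 were with earlier results of these data known, was set beside them. In the 6 Ucp1-rich nuclei, of those with at least 10 adipocyte UMIs, 17 of 25 were above their share of UMIs in the KO-labelled library (6.44% of all such genes) and 9 of 18 in the WT-labelled library (4.32%), and none was below. Cidea had 21.0% of its 348 UMIs there in the KO-labelled library (35.5 times, interval 28.5 to 43.4). Adrb3, the beta-adrenergic receptor typical of mouse fat, did not follow Ucp1, at 0.951 times (interval 0.642 to 1.36). Each value was also taken without the Ucp1-rich nucleus with most UMIs of the gene. Of the 17 genes of the KO-labelled library, Zbtb16 and P2rx5 were then within counting error of their share. Of the 9 of the WT-labelled library, only Gk, Pdk4 and Nrg4 stayed above it (lower limits 11.25, 2.99 and 1.09). Cidea, Slc36a2, Fabp3, Sirt3, Plin5 and Clstn3 did not.

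Of the 28 genes, 22 reached 50 adipocyte UMIs themselves. Between the libraries, the adipocyte CPM of 9 of the 28 was at least 2 times and that of 5 at most 0.5 times as high, with a median log2 ratio of 0.18. These are 32.1% and 17.9%, beside 25.6% and 18.1% of the 11777 genes with at least 50 adipocyte UMIs. After the subtraction for intronic length these counts were 11 and 4 (beside 18.8% and 12.2% of 11014 genes), with a median of 0.36 (0.0041 over all genes). Slc27a2 had 0 and 2 UMIs and no ratio. Zbtb16, a transcription factor, had 157 and 11892 UMIs and a log2 ratio of 4.10 (2.77 after the subtraction for intronic length). Ebf2, a transcription factor of brown and beige precursors, had 57 and 1664 UMIs (2.73, then 1.297), and Nrg4, which encodes a secreted factor of brown fat, had 432 and 9949 (2.38, then 1.55). Cidea had 20 and 348 UMIs (1.98, then 2.06).

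On the other side, Clstn3 had 139 and 34.8 CPM in adipocytes, and a log2 ratio of -2.06 after the subtraction. Sirt3, a mitochondrial deacetylase, had 170 and 278 UMIs (-1.43, then -1.26), and Slc36a2, an amino acid transporter used as a brown and beige marker, had 2003 and 4490 (-0.98, then -0.91). Gk, although like Ucp1 within each library, was lower in the KO-labelled library at -0.65 (then -1.26). Adrb3 changed side, from -0.68 to 0.32. Genes of the wider list thus lay on both sides.

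Within the KO-labelled library a finer clustering (resolution 1.0, with the 38 thermogenic genes left out of the variable genes) split the adipocytes into a group of 614 nuclei led by Nnat (median 6790.5 UMIs) and a group of 337 nuclei led by Mageb18 (median 12601 UMIs). The Nnat group held 77 of the 78 Ucp1 UMIs, 16.9 CPM (interval 13.3 to 21.1) against 0.206 CPM (interval 0.00521 to 1.15) from 1 UMI. Dio2 was 11.2 times higher in that group (interval 2.73 to 98.4), Ppara 3.00 times (interval 2.55 to 3.53), Ppargc1a 2.38 times (interval 1.90 to 2.98) and Prdm16 2.199 times (interval 1.95 to 2.48). Esrrg was nearly even at 1.17 times (interval 1.01 to 1.36). These groups are clusters of the same nuclei and were compared without a test.

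Paralogues of the genes were read in the same classes. Ucp2, known from immune cells, had 310 and 227 CPM in myeloid nuclei against 33.7 and 9.75 CPM in adipocytes, lower in the KO-labelled library as Ucp1 was, and Ucp3, the muscle form, had 671 CPM in myocytes against 55.6 and 104 CPM in adipocytes. Ppargc1b had 69.2 and 112 CPM in adipocytes and Esrra 74.8 and 66.5 CPM. Cox7a2, the widely expressed form of Cox7a1, had 43.0 and 42.0 CPM in adipocytes. Pparg had 404 and 1795 CPM and Ppard 7.48 and 52.8 CPM, both higher in the KO-labelled library as counted, as Ppara was. Dio1, Dio3 and Cox8c had 0 UMIs in adipocytes of both libraries.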

How the data were processed

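Nuclei of pooled iWAT were profiled by 10x Genomics 3′ v3.1 single-nucleus RNA-Seq. The deposited values are raw UMI counts of genes by barcodes from Cell Ranger (6.1.1 per the file headers) on mm10, and Seurat 4 is named in the submitters' processing notes. Whether intronic reads were counted is not given in the sources used here. The 10 genes and all lists were chosen with earlier results of these data known. Barcodes with at least 500 genes and at most 5% mitochondrial UMIs were kept. Both libraries were merged, log-normalised to 10000, and clustered in Seurat 5.3.0 (R 4.3.3) on 2000 variable genes, the thermogenic genes left out, with 20 principal components, 20 neighbours and resolution 0.5. A cluster was named where at least 3 markers of a class passed (5% of nuclei and 2 times the mean CPM of the other clusters) with a lead of 3 over the next class. Doublets were not removed. Removal of nuclei marked by Scrublet (scanpy 1.11.5) was an alternative, for which the automatic threshold marked 0 nuclei of the WT-labelled library, so that the top 4% of scores (146 nuclei) were taken there and 92 nuclei in the KO-labelled library.

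UMIs were summed per class and library, and CPM are per 1000000 UMIs of the class. Counts have exact Poisson intervals, shares Clopper-Pearson intervals and ratios conditional binomial intervals (scipy 1.17.1, numpy 2.4.6, Python 3.11.15), tested on simulated data, all at 95% and for counting error only. With 1 library per genotype there were no replicates and no test. A count of 0 was set at 3 counts for ratios. Intronic lengths came from a mouse annotation of an older build and were used as lengths only (11014 of 11777 genes matched, 93.5%), and coordinates and promoters from RefSeq tables on GRCm38.p6. TMM factors came from edgeR 4.0.16. All 10 genes are named. Genes of the 28 others and of 23 paralogues could be named, and only some are, where they had at least 10 UMIs in adipocytes or myocytes of a library, except Slc27a2, Dio1, Dio3 and Cox8c, which are named for their low counts. Genes most like Ucp1 are the 10 with the highest lower limit of likeness among genes with at least 10 UMIs in nuclei with at least 3 Ucp1 UMIs. Levels are not normalised to gene length and are not compared between genes.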

Additional observations from a re-analysis of the deposited data

Results flagged for a closer look

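Ucp1 was also present in barcodes that no comparison used. In the WT-labelled library, 1351 barcodes were left out, and they held 16 Ucp1 UMIs in 11 barcodes, with 14 of the UMIs in the 904 barcodes with more than 5% mitochondrial UMIs. In the KO-labelled library, 2056 barcodes were left out and held 12 Ucp1 UMIs in 8 barcodes, 8 of the UMIs in 608 such barcodes. Both sums exceed the limit of 3 UMIs set for a gene with none. The most in a barcode was 5 UMIs in either library. The left-out barcodes of the KO-labelled library also held 80 UMIs of Ppara in 20 barcodes, with 21 in the highest, and 199 UMIs of Cox8b (65.7 CPM).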

How the results depend on the processing

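No paired analysis was possible because each genotype has 1 library. Over the alternatives tried, 56 of 69 summary values and 81 of 90 gene values stayed within their counting interval or, for counts of genes, within 1.5 times. Ppargc1a, not called as counted, was called in opposite directions by 2 alternatives. Correction for intronic length gave log2 ratios of -0.99 for Ucp1, -0.77 for Ppargc1a, 0.13 for Prdm16, 0.74 for Cox8b, -3.21 for Elovl3 and 4.04 for Esrrg. TMM scaling shifts all log2 ratios by 0.28 and totals without mitochondrial genes and Malat1 by -0.24. Ppargc1a was then at 0.38 (interval 0.03 to 0.75) and -0.14, and Cox8b at 0.03 and -0.50. Of the 28 other thermogenic genes, 9 lay at or above 2 and 5 at or under 0.5, which became 11 and 3 under TMM scaling, 8 and 7 without mitochondrial genes and Malat1, and 9 and 2 without the 3 nuclei with most UMIs of each gene, where Ucp1 was at -2.88 and Elovl3 at -3.14. The share of adipocytes with at least 2 of the 10 genes in the KO-labelled library was 1.88% at 500 UMIs and 11.3% at 2000 UMIs, and 0.842% with the 3 genes of longest introns left out. At full depth the shares were 8.89% (WT-labelled) and 44.2% (KO-labelled). At 1000 UMIs, at least 3 of the 10 genes were found in 0.457% and 1.26%. Co-detection of at least 2 others in Ucp1 nuclei of the KO-labelled library was 100.0% at 2000 UMIs (4 nuclei) and 100.0% at full depth with at least 3 Ucp1 UMIs (6 nuclei), a change of both depth and minimum, beside 80.0% at full depth with any Ucp1 UMI. Without the 2 nuclei of that library with most Ucp1, an alternative chosen after seeing the data, the log2 ratio of Ucp1 was -3.38, the summed level of the 10 genes was 331 CPM instead of 356, and the 3 highest remaining nuclei held 63.6% of Ucp1. The cause of these shifts was not tested. Removing doublets, a minimum of 1000 genes, classes from marker UMIs alone and resolution 1.0 moved none of the 19 values recomputed under each beyond those limits. Dio2 also left counting error at -1.23 with classes from marker UMIs and at -1.32 without mitochondrial genes and Malat1. A missing UMI in a nucleus does not show that the gene was silent.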

Other observations

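Outside adipocytes, 5 nuclei held at least 3 of the 10 genes. A nucleus of the lymphocyte class in the WT-labelled library, with 2834 UMIs, held 3 UMIs of Ppargc1a and 1 each of Ucp1, Dio2, Cox8b and Cpt1b, beside 2 of Plin1 and 0 of Adipoq. The other 4 were myocytes of the KO-labelled library, with Ppargc1a in each and Ucp1 in none. The deepest of them, with 31423 UMIs and 4 of the genes, was marked as a doublet and held 29 UMIs of Adipoq, 22 of Pparg and 19 of Plin1, while the other 3 held at most 1 of each. In all, at full depth 15 of 58 myocytes (25.9%, interval 15.3 to 39.0) held at least 2 of the genes. Among precursors, Prdm16 was 2.84 times higher in ASPCs of the KO-labelled library (interval 1.15 to 9.06) and Ppargc1a 0.122 times as high (interval 0.0328 to 0.392), from 5 UMIs against 10. The ASPCs too formed different clusters, since cluster 8 held 329 nuclei of the WT-labelled library with 28 of the KO-labelled library, and clusters 5 and 6 held 392 and 381 of the KO-labelled library with 5 and 0 of the other. Prdm16 had no difference beyond counting error in adipocytes once intronic length was taken into account, which was not done for ASPCs. No test between genotypes was possible for any of these.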
